A study of Mus musculus with 6 samples.

Results

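The genes described here are 33 genes of red cell formation, chosen by name: transcription factors of the erythroid lineage, the erythropoietin receptor, proteins of the red cell membrane and its skeleton, Rh complex and blood group proteins, late red cell proteins, enzymes of heme synthesis, and carriers of iron. Globins were left out of the list. Of the 33, 32 were found in the count table of 55401 genes, and all 32 passed the filter on low counts that left 16784 genes to test. *Ahsp*, the chaperone of free alpha globin, was not analysed here. The rule names genes and uses no measured value.

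RNA-seq was performed on whole mouse embryos at E10.5, that is, in midgestation, on a C57BL/6J background, in 2 genotypes with 3 libraries each. WT embryos have an *Igf2* locus without an insertion. 5C embryos are their littermates and carry a tandem array of extra copies of the microRNA gene *Mir483*, inserted by homologous recombination at that locus, where *Mir483* lies in an intron of *Igf2*. The study's methods state that male embryos were pooled, 2 to a library, so the spread between libraries is a spread between pools, and the array is present in every cell of a 5C embryo. *Mir483* itself, the check of the labels, had 11, 5 and 2 counts in WT and 85, 51 and 36 counts in 5C, so that every 5C library lay above every WT library, although edgeR's quasi-likelihood test gave an adjusted p of 0.169. Totals ranged from 6357343 to 19151368 counts per library. WT replicate 1 stood apart in markers of the yolk sac endoderm, which summed to 7040 CPM (counts scaled to a common library total, the usual unit of level in RNA-seq) there and to between 244 and 1434 CPM in the other libraries.

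At this stage the circulating red cells of the mouse are mainly primitive erythroblasts, which arise in the yolk sac, enter the bloodstream with their nuclei and express embryonic globins. Their gene programme is driven by *Gata1* with its cofactor *Zfpm1* (FOG1), by the *Tal1* and *Lmo2* complex and by *Klf1*. As the cells mature they build a spectrin and ankyrin skeleton under the membrane, anchored to the anion exchanger band 3 (*Slc4a1*), and import iron through the transferrin receptor (*Tfrc*) to make heme in the mitochondrion. The embryonic globins *Hba-x*, *Hbb-y* and *Hbb-bh1* summed to between 8108 and 15842 CPM. Red cell RNA of the embryonic kind was thus measured in all 6 libraries. The adult globins made up 1.73% to 3.68% of all globin counted. The highest share, in 5C replicate 3, went with *Hbb-bs*, at 116.4 CPM there and at most 50.4 CPM in every other library. How reads that match more than 1 adult globin gene were counted was not given in the sources used here. The adult share could therefore be too low.

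The sequences that could tie these genes to the microRNA are shown first. The mature microRNAs made from the *Mir483* hairpin are given below from RefSeq, with the seed (bases 2 to 8, the part that pairs with a target) in capitals.
miR-483-3p: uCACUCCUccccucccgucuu
miR-483-5p: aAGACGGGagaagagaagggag

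A perfect match to the complement of the miR-483-3p seed, AGGAGTG, stood in the annotated 3′ UTR of 5 of the 32 genes (15.6%, against 11.5% of 13812 tested genes with a 3′ UTR), and a match to that of miR-483-5p, CCCGTCT, in 2 (6.25%, against 3.28%). The 7 matches are printed with 10 bases on each side, in capitals at the match, in GRCm38 coordinates of the match.
*Add2* (chr6:86119977-86119983, plus strand, exon 16 of 16): cctcctaaggAGGAGTGttggttagtg
*Bpgm* (chr6:34505557-34505563, plus strand, exon 3 of 3): gcttttttccAGGAGTGggttaattta
*Epb41* (chr4:131925049-131925055, minus strand, exon 21 of 21): gatcctgttaAGGAGTGcttccagcct
*Klf1* (chr8:84905166-84905172, plus strand, exon 3 of 3): cctagaccagAGGAGTGaccctgtgtc
*Tal1* (chr4:115071014-115071020, plus strand, exon 5 of 5): ggcaagaaacAGGAGTGagaaggggtg
*Cpox* (chr16:58678883-58678889, plus strand, exon 7 of 7): ccctgggcacCCCGTCTgtggcaggcg
*Tfrc* (chr16:32630726-32630732, plus strand, exon 19 of 19): tggagattgcCCCGTCTccatctgatc

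The first 5 match miR-483-3p, and the last 2 match miR-483-5p. The genes with a miR-483-3p match had a median log2 fold change of 0.06, and so did those without one. The genes with that match have longer 3′ UTRs (median 2511 bases, against 614), and a match of letters is no measured binding site. *Tfrc* and *Cpox*, the genes with a miR-483-5p match, had log2 fold changes of 0.26 and 0.04.

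The 250 bases before the start of transcription, taken from RefSeq (GRCm38.p6), were used for 25 of the 32 genes, as 31 windows. Motifs of 3 factor families known from erythroid promoters were searched on both strands. For the GATA factors the motif was AGATAA, also with T as the first or G as the last letter. For the Krüppel-like factors it was the CACCC-type motif CCNCNCCC, in which N stands for any base. For the factor that contains *Nfe2* it was TGAGTCA. The first of these stood in 16 of the 31 windows (51.6%), against 26.5% of the 32851 windows of all genes. Split by where the genes are known to be expressed, 11 of the 12 red cell restricted genes with a window had one, all but *Gata1*, and 5 of the 13 genes that other cells also use. The CACCC-type motif stood in 58.1% of the members' windows against 45.9% of all windows, and the NF-E2-type motif in 6.45% against 4.46%. By the same split, windows of 5 of the 12 red cell restricted genes held the CACCC-type motif, and of 10 of the 13 others. The NF-E2-type motif was held by 2 of the 12 and 0 of the 13. Windows of 4 red cell restricted genes, each with a GATA motif, and of *Urod*, a broadly used heme enzyme without any of the 3 motifs, are printed as examples. Matches are in capitals, and the other windows are not printed.
*Klf1* (chr8:84901732-84901981, plus strand): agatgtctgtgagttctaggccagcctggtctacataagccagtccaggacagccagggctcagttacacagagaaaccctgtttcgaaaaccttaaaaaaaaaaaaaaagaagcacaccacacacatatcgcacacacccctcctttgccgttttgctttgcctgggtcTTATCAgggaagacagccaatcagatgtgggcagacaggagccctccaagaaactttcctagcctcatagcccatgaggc
*Alas2* (chrX:150547167-150547416, plus strand): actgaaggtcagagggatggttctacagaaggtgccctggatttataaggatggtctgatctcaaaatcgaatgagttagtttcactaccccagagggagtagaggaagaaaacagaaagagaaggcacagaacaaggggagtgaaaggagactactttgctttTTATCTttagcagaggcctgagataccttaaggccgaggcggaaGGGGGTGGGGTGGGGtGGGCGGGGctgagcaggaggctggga
*Rhag* (chr17:40810899-40811148, plus strand): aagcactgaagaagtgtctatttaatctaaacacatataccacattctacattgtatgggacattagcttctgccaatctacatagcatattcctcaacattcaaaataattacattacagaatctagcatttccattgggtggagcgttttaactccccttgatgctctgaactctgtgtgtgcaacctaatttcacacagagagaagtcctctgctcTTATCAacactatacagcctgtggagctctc
*Epb42* (chr2:121036878-121037127, minus strand): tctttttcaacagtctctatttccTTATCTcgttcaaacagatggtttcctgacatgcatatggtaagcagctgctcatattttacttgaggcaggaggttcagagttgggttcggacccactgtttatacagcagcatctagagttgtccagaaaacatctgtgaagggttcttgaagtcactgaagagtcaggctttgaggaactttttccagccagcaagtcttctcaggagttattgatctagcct
*Urod* (chr4:116994414-116994663, minus strand): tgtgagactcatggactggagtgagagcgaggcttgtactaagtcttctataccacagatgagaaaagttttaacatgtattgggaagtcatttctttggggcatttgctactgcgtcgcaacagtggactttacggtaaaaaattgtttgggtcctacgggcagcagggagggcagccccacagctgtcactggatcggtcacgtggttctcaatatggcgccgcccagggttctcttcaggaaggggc

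The windows of *Klf1*, *Rhag* and *Epb42* each hold 1 GATA motif, and that of *Alas2* holds 1 GATA motif and 4 CACCC-type matches, some of which overlap.

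To ask whether an excess of *Mir483* changed the red cell genes, 5C was compared with WT gene by gene. None of the 32 genes was called. A call required a change of more than 1.5-fold at an adjusted p under 0.05, and 0% of the 16784 genes met it. The study itself reported genes that passed these thresholds in 5C embryos, with *Igf2* among the lower ones. The reason for this difference was not tested. Adjusted p-values of the 32 genes lay between 0.781 and 0.9998 in edgeR's quasi-likelihood test. At an unadjusted p under 0.05 there was 1 of 32 genes (3.12%), *Tfrc*, which was higher in 5C, against 6.02% of all genes tested, or 2.55% higher and 3.47% lower. DESeq2 likewise gave 1 gene and limma-voom gave 0. The 3 CPM values per genotype overlapped for every one of the 32 genes, whereas they did not overlap for 11.4% of all genes tested. The median log2 fold change was 0.06, against -0.0024 over all genes tested, and it was above 0 for 24 of 32 genes (75%), against 49.3% of all genes. These 24 are not 24 separate observations, because the genes moved together from library to library, as described below.

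The 95% intervals show what size of difference these libraries leave possible. Their median half-width was 0.48 on the log2 scale, and over the 32 genes they ran from 0.533-fold to 2.01-fold. The interval reached past 1.5-fold in at least 1 direction for 11 of the 14 red cell restricted genes, for which a difference of that size was therefore not excluded, and for 3 of the 18 broadly expressed ones. For *Epb41*, *Bpgm*, *Lmo2* and *Slc25a38* the intervals stayed close around 0, as the plot of fold changes shows. In whole embryos, fewer red cells and less of an RNA in each red cell cannot be told apart.

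**Figure D1:**
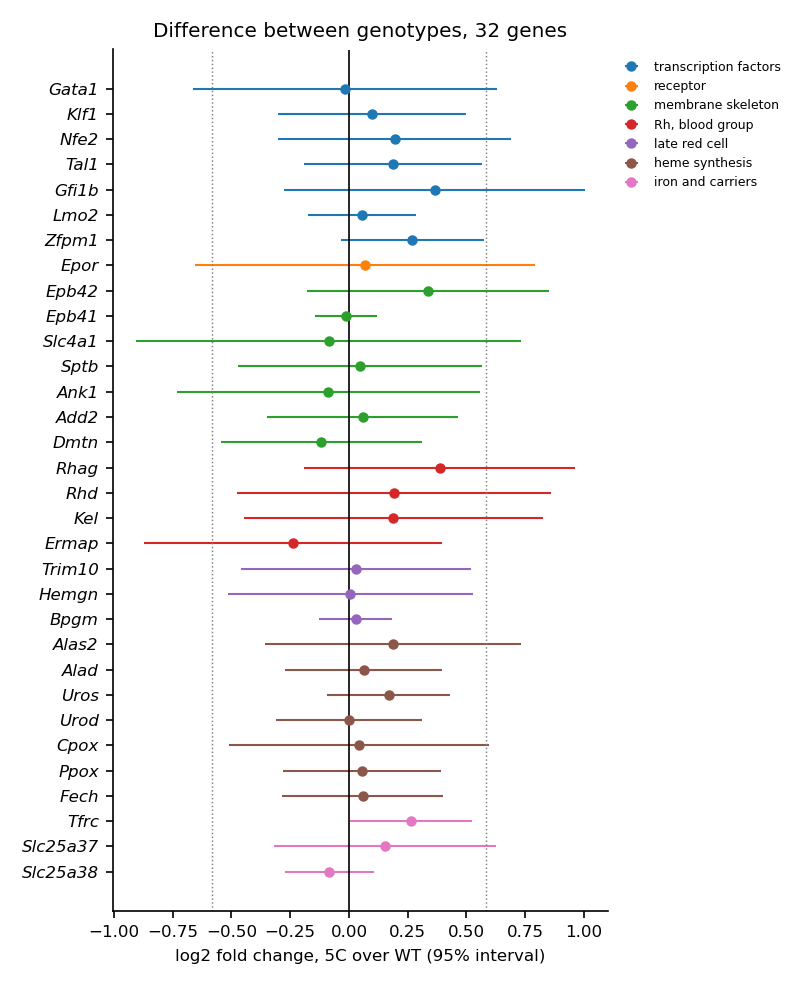
Log2 fold change of 5C over WT for the 32 genes, ordered by role; points are edgeR estimates from 3 libraries per genotype, bars are 95% intervals, and dotted lines mark 1.5-fold in either direction. Only the interval of *Tfrc* leaves out 0, from 0.0028 to 0.53, before adjustment for the number of genes tested.

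*Tfrc*, the transferrin receptor through which erythroblasts and other dividing cells take up iron, measured 439.5, 444.5 and 459.3 CPM in WT, against 639.4, 532.1 and 441.5 CPM in 5C. The WT libraries lay close together, 5C replicates 1 and 2 lay above all of them, and 5C replicate 3 lay within their range. The log2 fold change of 0.26 (SE 0.12) had an unadjusted p of 0.0480, or 0.781 once adjusted, in edgeR's quasi-likelihood test. The mitochondrial iron importer *Slc25a37* (mitoferrin 1) had a log2 fold change of 0.15 (SE 0.21), and *Slc25a38*, which carries glycine into the mitochondrion for the first step of heme synthesis, had -0.08 (SE 0.08). *Slc25a38* was among the steadiest of the 32 genes, at 29.2 to 33.2 CPM in the 6 libraries.

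**Figure D2:**
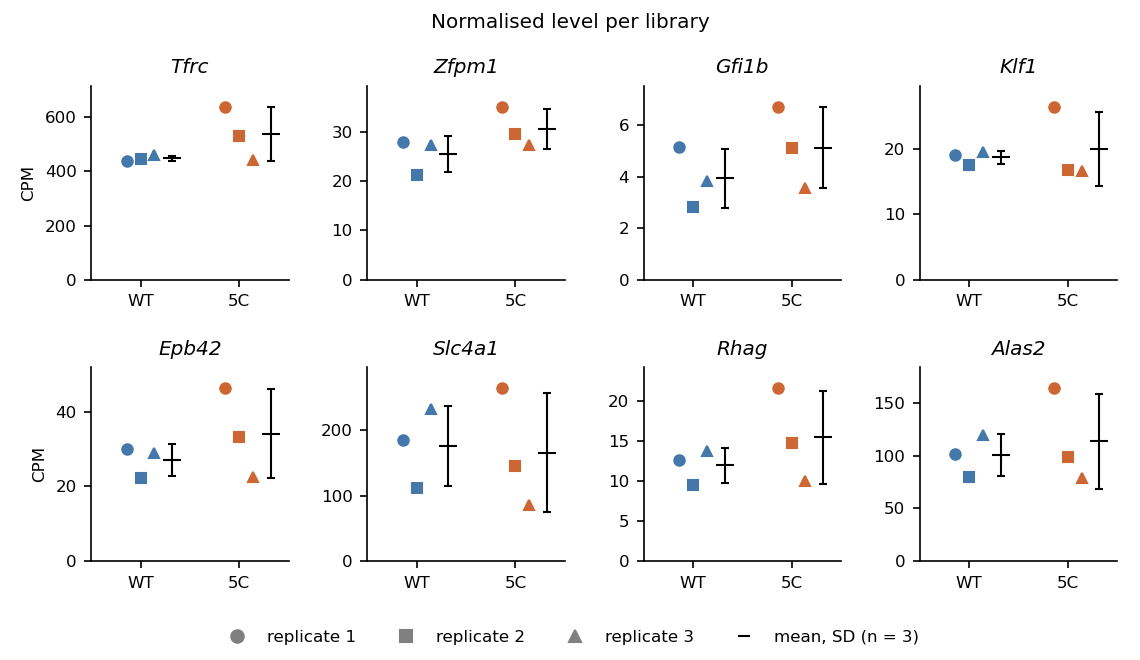
CPM per library (y axis, from 0) of 8 genes in WT (blue) and 5C (orange); symbols mark the replicate, and the black bar is the mean with SD of the 3 libraries. The genotypes overlap in every panel, and 5C replicate 1 is the highest library in all 8.

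Among the transcription factors, *Gfi1b*, a repressor needed for red cell and platelet formation, had the largest difference, with 5.14, 2.83 and 3.83 CPM in WT, against 6.73, 5.12 and 3.56 CPM in 5C. Its 5C values spanned most of the WT range, and its log2 fold change was 0.36 (SE 0.29; unadjusted p = 0.232 in edgeR's quasi-likelihood test). *Klf1*, which activates globin, membrane and heme genes and had the highest level per kilobase of exon in this group, measured 19.2, 17.5 and 19.5 CPM in WT, against 26.5, 16.7 and 16.6 CPM in 5C, so that 1 of the 5C libraries lay above the WT libraries and the other two lay below them. *Zfpm1*, the cofactor of *Gata1*, had the smallest p of the group: 27.9, 21.2 and 27.4 CPM in WT, against 35.1, 29.6 and 27.3 CPM in 5C, a log2 fold change of 0.27 (unadjusted p = 0.0755 in edgeR's quasi-likelihood test).

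*Gata1*, the master regulator of the lineage, had a log2 fold change of -0.02 (SE 0.29) and ranged from 7.90 to 17.0 CPM, both within 5C. *Nfe2*, a factor of late erythroid and platelet genes, and *Tal1* had log2 fold changes of 0.20 and 0.19, and *Lmo2*, which bridges *Tal1* to *Gata1* and is also used by endothelium, had 0.06. In all, 6 of the 7 factors lay above 0 and none had an unadjusted p under 0.05. The erythropoietin receptor *Epor*, through which the survival signal of erythroid cells passes, measured 11.5, 7.81 and 12.8 CPM in WT, against 16.8, 10.2 and 6.19 CPM in 5C, with both the highest and the lowest library in 5C and a log2 fold change of 0.07.

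The membrane skeleton gave log2 fold changes on both sides of 0, 3 above and 4 below. *Epb42* (protein 4.2), which ties band 3 to ankyrin, measured 30.1, 22.2 and 28.9 CPM in WT, against 46.4, 33.2 and 22.6 CPM in 5C. Its log2 fold change was 0.34 (SE 0.23; unadjusted p = 0.175 in edgeR's quasi-likelihood test), and 5C replicate 3 lay with the lowest WT library. *Slc4a1*, which exchanges chloride for bicarbonate and is the main integral protein of the red cell membrane, measured 185.7, 111.4 and 232.8 CPM in WT, against 264.9, 145.9 and 85.7 CPM in 5C. It was the most variable of the 32 genes, 3.09-fold higher in 5C replicate 1 than in 5C replicate 3, while its log2 fold change between genotypes was -0.09 (SE 0.37).

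The other skeleton genes were the spectrin *Sptb* (45.9 to 91.7 CPM), the ankyrin *Ank1* (17.3 to 38.9 CPM), the adducin *Add2* (56.2 to 101.9 CPM), *Dmtn*, which bundles actin (11.8 to 18.5 CPM), and *Epb41* (protein 4.1), which joins spectrin to actin and is used by many cell types. *Epb41* held between 331.9 and 351 CPM in all 6 libraries, a range of 1.06-fold, and its log2 fold change was -0.01 (SE 0.06). The largest difference below 0 among these 5 was that of *Dmtn*, -0.12 (SE 0.19).

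In the Rh complex and blood group genes, *Rhag*, the ammonia channel of the Rh complex, had the largest log2 fold change of all 32 genes, 0.39 (SE 0.26). It measured 12.6, 9.44 and 13.7 CPM in WT, against 21.6, 14.7 and 10.04 CPM in 5C, and the unadjusted p was 0.165. Its partner *Rhd* measured 18.99, 12.2 and 16.6 CPM in WT, against 25.3, 19.6 and 9.82 CPM in 5C. The ratio of *Rhag* to *Rhd* in CPM per kilobase stayed between 0.454 and 0.696 in the 6 libraries. *Kel*, the Kell blood group protein, had a log2 fold change of 0.19, and *Ermap*, the Scianna blood group protein, had the most negative value of the 32 genes, -0.24 (SE 0.28).

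Of the late red cell proteins, *Trim10*, a ubiquitin ligase family member needed for terminal erythroid maturation, measured 19.9, 16.3 and 22.8 CPM in WT, against 25.996, 20.2 and 13.5 CPM in 5C. *Hemgn* (hemogen), a nuclear protein of blood-forming cells, ranged from 27.2 to 53.9 CPM. Both had log2 fold changes near 0, at 0.03 and 0.0063. *Bpgm*, the enzyme behind the bisphosphoglycerate that lowers the oxygen affinity of hemoglobin, measured 69.2, 73.8 and 74.0 CPM in WT, against 76.1, 70.0 and 74.8 CPM in 5C, with no library standing apart.

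Heme is built from glycine and succinyl-CoA by a chain of enzymes, of which 7 are members here, and *Alas1* was added from the wider list of heme and iron genes. *Alas2*, the erythroid form of the first and rate-limiting enzyme, measured 101.8, 79.7 and 119.8 CPM in WT, against 164.5, 98.4 and 78.4 CPM in 5C, with 5C holding the highest and the lowest library. Its log2 fold change was 0.19 (SE 0.24). *Alas1*, the form used by all other cells, stayed between 37.0 and 44.96 CPM. In CPM per kilobase, the *Alas2* level was 4.86 to 10.6 times that of *Alas1*, highest in 5C replicate 1 and lowest in WT replicate 2. The length merges all annotated exons, 6.17 kb for *Alas1* and 2.40 kb for *Alas2*, so the size of this ratio depends on the annotation. In CPM alone *Alas2* was also above *Alas1*, so the erythroid form was the more abundant first-step mRNA in every whole-embryo library.

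**Figure D3:**
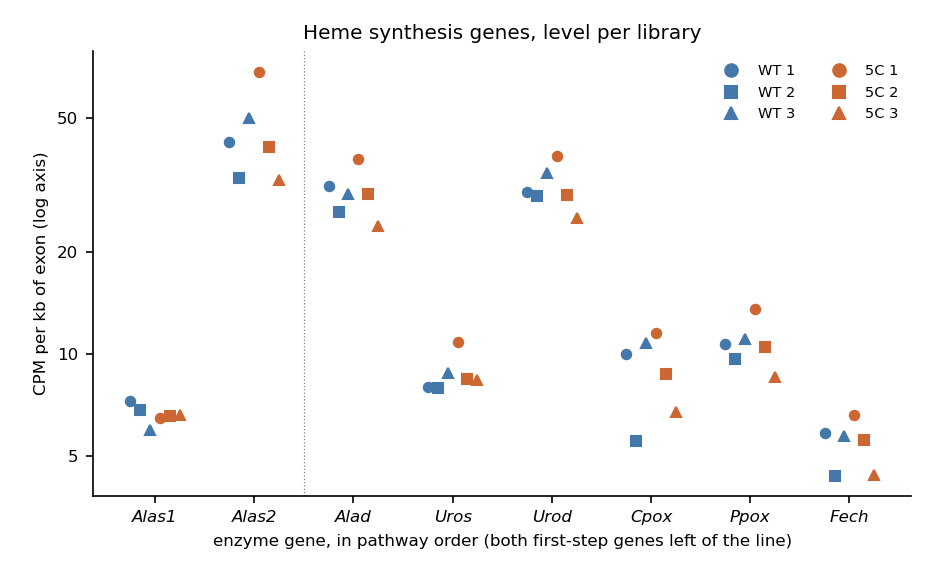
CPM per kilobase of exon (log axis) of the member enzymes of heme synthesis and *Alas1*, in pathway order, with 1 point per library; WT blue, 5C orange. *Alas2* lies above *Alas1* in all 6 libraries, and 5C replicate 1 is the highest library for every gene except *Alas1*.

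The enzymes after the first step differed in level per kilobase of exon. *Urod* (mean 31.2) and *Alad* (29.8) were the higher ones, and *Ppox* (10.7), *Cpox* (8.91), *Uros* (8.75) and *Fech* (5.44), the ferrochelatase that inserts the iron, were the lower ones. The length merges all annotated exons, 13.8 kb for *Fech* and 2.59 kb for *Urod*, so these places depend on the annotation. In mean CPM, *Fech* (73.8 in WT, 76.7 in 5C) lay close to *Urod* (81.1 in WT, 80.7 in 5C). None of the 7 member enzymes had an unadjusted p under 0.05, and 6 of 7 log2 fold changes lay above 0, from 0.04 for *Cpox* to 0.19 for *Alas2*, with *Urod* at -0.0008. The smallest p was that of *Uros*, 0.178 at a log2 fold change of 0.17. *Cpox* (coproporphyrinogen oxidase) ran from 36.9 CPM in WT replicate 2 to 76.8 CPM in 5C replicate 1, a 2.08-fold range next to 2.10-fold for *Alas2*. Exons of *Alas2* and *Ppox* lie under genes on the opposite strand over 15.5% and 17.5% of their length, and the strand setting of the counting was not given in the sources used here.

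Ordered by level per kilobase over all 6 libraries, *Tfrc* stood first at 79.7 ± 12.9 CPM per kilobase (SD, n = 6), followed by *Alas2* at 44.6 ± 13.3, *Slc4a1* at 35.0 ± 14.3, *Slc25a37* at 31.9 ± 7.78, *Urod* at 31.2 ± 4.57 and *Alad* at 29.8 ± 4.75. *Ermap* at 2.08 ± 0.625 and *Dmtn* at 1.60 ± 0.306 stood last, and the transcription factors ran from 12.6 for *Klf1* to 2.48 for *Gfi1b*. Of the 31 pairs of neighbours in this order, 7 kept their order in all 6 libraries, among them *Tfrc* above *Alas2* and *Alas2* above *Slc4a1*, and the other 24 changed places in at least 1 library. The SD covers both genotypes, and the order depends on the merged length of all annotated exons.

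Most of these genes shared an order of the libraries within each genotype. In 28 of the 32 genes (87.5%), WT replicate 2 was the lowest WT library and, within 5C, replicate 1 was above replicate 2 and replicate 2 above replicate 3. The exceptions were *Lmo2*, *Bpgm*, *Tfrc* and *Slc25a38*. The same order was found in 9.60% of all genes tested, and in 10.9% of the 12065 genes within the members' CPM range. 5C replicate 1 was the highest of the 6 libraries for 26 of the 32 genes, against 13.1% of all genes. This order was noticed in these same libraries, so the counts describe them and carry no test.

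**Figure D4:**
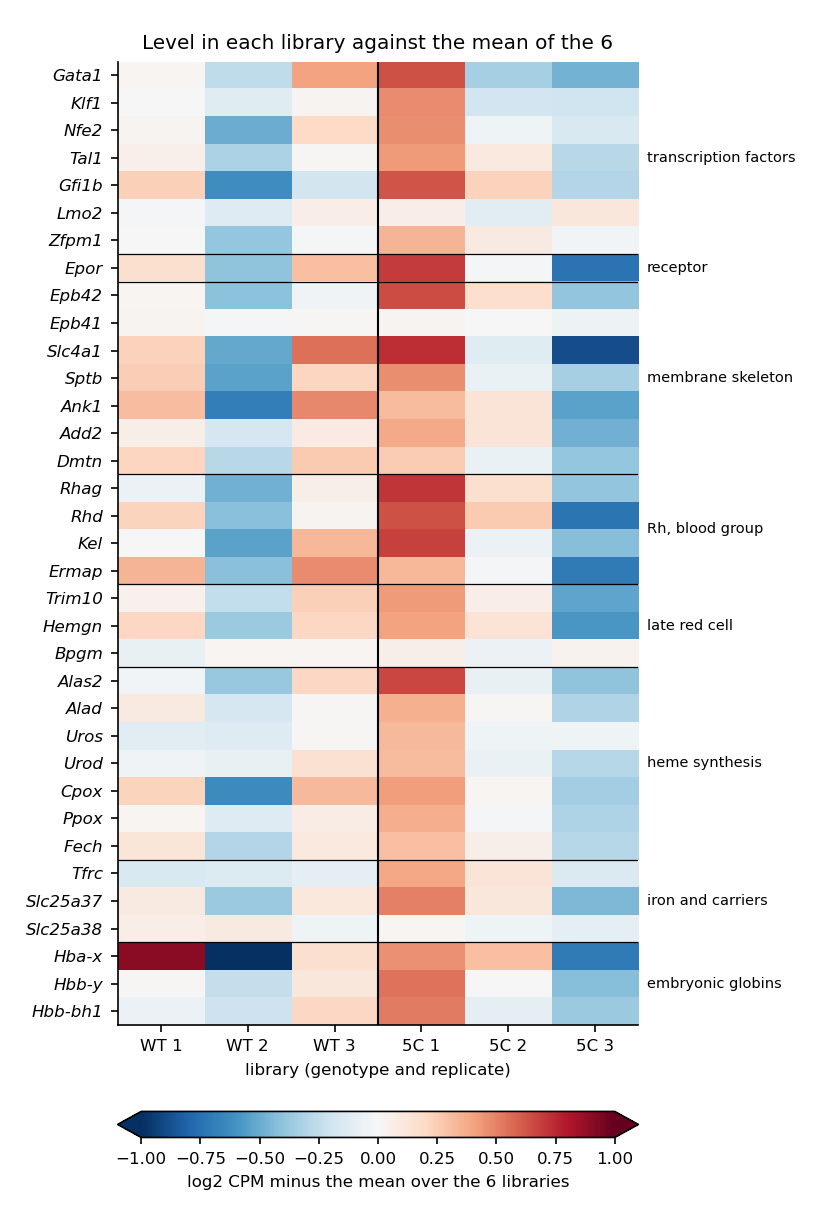
Log2 CPM of each gene in each library minus its mean over the 6 libraries (red higher, blue lower, colours capped at 1), with the 32 genes grouped by role and the 3 embryonic globins below. The columns of WT replicate 2 and 5C replicate 3 are blue and that of 5C replicate 1 is red through nearly all rows, while *Epb41*, *Lmo2*, *Bpgm* and *Slc25a38* stay pale.

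The shared order was sharpest in the 14 genes listed as red cell restricted, of which some, such as *Nfe2* and *Gfi1b*, also act in platelet formation. The split follows known expression and was not measured here. All 14 restricted genes kept the order, and their geometric mean was 21.2, 14.9 and 22.7 CPM in WT, against 29.5, 19.9 and 14.005 CPM in 5C. The highest library was thus 2.11 times the lowest, both of them in 5C, while the mean of the 5C libraries was 1.08 times that of WT. Of the 18 genes that other cells use too, 14 kept the order, with a geometric mean of 63.4, 51.3 and 65.0 CPM in WT, against 74.5, 61.4 and 51.6 CPM in 5C, a 1.45-fold range. The median SD within genotypes was 0.44 on the log2 scale for the restricted genes and 0.25 for the broad ones, against 0.15 for all genes tested.

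The embryonic globins, which are no members of the list, showed the same order in all 3 of 3 genes. Their sum was 12028, 8898 and 12171 CPM in WT, against 15842, 11047 and 8108 CPM in 5C, a 1.95-fold range. As a description with the same libraries on both sides, the restricted genes, the broad genes and the globins thus ranked the libraries alike within each genotype.

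**Figure D5:**
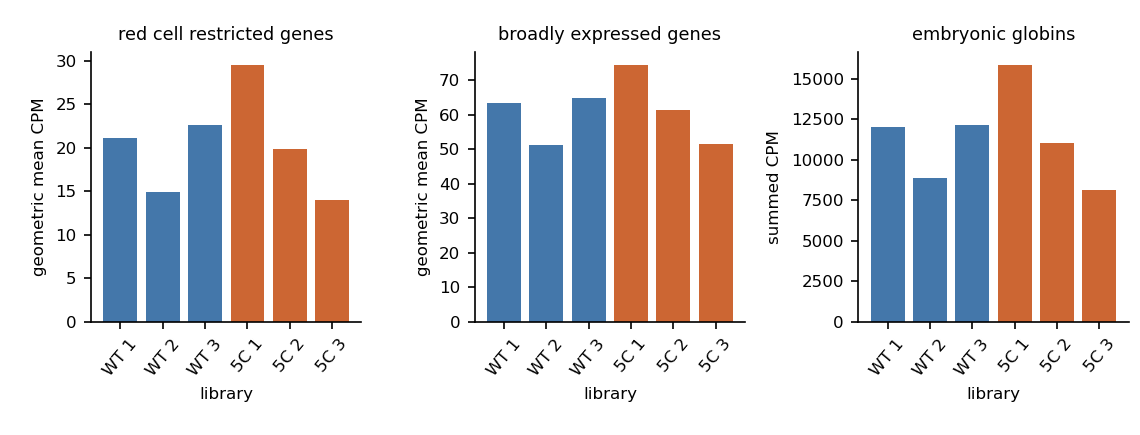
Geometric mean CPM of the 14 red cell restricted genes (left) and of the 18 broadly expressed genes (middle), and summed CPM of the 3 embryonic globins (right), in each library; WT blue, 5C orange, y axes from 0. In each panel WT replicate 2 is the lowest WT bar and 5C replicate 1 the highest bar of all, at 29.5, 74.5 and 15842 CPM.

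In WT the lowest library for these genes, replicate 2, held 11717223 counts, between the 19151368 of replicate 1 and the 6357343 of replicate 3. In 5C the highest library, replicate 1, was also the deepest, with 16291582 counts, against 11628885 in replicate 2 and 14180748 in replicate 3. The part of depth in the order of the libraries was not tested. Across all genes tested, log2 fold changes were lower at higher GC content of the transcript (Spearman rho -0.313, a description over genes, which are not independent replicates), and the 32 genes had a median GC content of 53.0% against 49.0%. With an offset for GC content in each library, 26 of the 32 genes kept the order and the restricted genes spanned 2.03-fold. Marker genes of other cell types were summed in each library. The 13 endothelial markers varied little, from 479 to 497 CPM in WT, against 469 to 491 CPM in 5C. The 13 megakaryocyte markers summed to 83.4, 63.0 and 102 CPM in WT, against 89.9, 91.7 and 91.1 CPM in 5C, lowest in WT replicate 2 but level within 5C. The 13 macrophage markers summed to 52.8 to 68.8 CPM in WT, against 57.7 to 71.3 CPM in 5C.

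Yolk sac endoderm and hepatoblast markers were highest in WT replicate 1, where the geometric mean of the red cell restricted genes lay between those of the other WT libraries, and next highest in 5C replicate 3, where it was lowest. The 18 yolk sac endoderm markers summed to 7040, 319 and 616 CPM in WT, against 254, 244 and 1434 CPM in 5C, and the 13 hepatoblast markers, which share *Afp* with them, to 3522, 207 and 382 CPM in WT, against 196, 201 and 800 CPM in 5C. The 14 decidua and placenta markers summed to 38.6, 32.1 and 70.0 CPM in WT, against 55.9, 35.1 and 84.7 CPM in 5C, highest in 5C replicate 3, with *Cts6* at 0 in all libraries. The part of these tissues, of dissection or of blood content in the red cell values was not tested.

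Because the genotypes were compared over 3 pools each, single libraries set the direction. Without 5C replicate 1 the median log2 fold change of the 32 genes was -0.13, and 8 of them lay above 0. Without 5C replicate 3 it was 0.23, 30 of them lay above 0, and 8 had an unadjusted p under 0.05, all higher in 5C, against 4.49% of all genes tested. In that setting the genotypes did not overlap for 8 of the 32 genes, against 19.8% of all genes. Without WT replicate 2 the median was -0.0072. Without WT replicate 1, the library highest in yolk sac endoderm markers, it was 0.13, and 25 of the genes lay above 0. No gene of the 32 was called in any of these settings.

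A covariate was chosen after the data were seen: the mean log2 CPM of the embryonic globins in each library, each globin with equal weight. With it, the standard error fell for 32 of 32 genes, from a median of 0.22 to 0.098 on the log2 scale. The median log2 fold change was then 0.02, and 4 genes (12.5%) had an unadjusted p under 0.05, against 9.81% of all genes tested. *Zfpm1* (log2 fold change 0.25), *Epb42* (0.25) and *Tfrc* (0.23) were higher and *Ermap* (-0.31) was lower in 5C. Their adjusted p-values were between 0.446 and 0.495 in edgeR's quasi-likelihood test, so none was called. The covariate is itself measured in these embryos and would carry away any part of a genotype difference that it shares.

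Other genes of the same pathways had no calls either. Over all genes tested, 2.55% were higher and 3.47% lower in 5C at an unadjusted p under 0.05, and 9.60% kept the order of the libraries. Of 21 other erythroid regulators, 1 had an unadjusted p under 0.05, the kinase *Jak2*, which relays the erythropoietin signal. It measured 73.8, 74.3 and 71.5 CPM in WT, against 86.3, 88.6 and 79.8 CPM in 5C, so that the genotypes did not overlap, with a log2 fold change of 0.21 and an adjusted p of 0.781 in edgeR's quasi-likelihood test. The stem cell factor receptor *Kit* (log2 fold change -0.19) and *E2f2* (-0.14) had the next smallest p, 0.159 and 0.195. The order of the libraries held in 8 of these 21 genes.

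Of 23 other red cell membrane genes, 2 were higher and 2 lower in 5C at an unadjusted p under 0.05, against 2.55% and 3.47% of all genes tested. The 3 with the smallest p were *Cd24a* (log2 fold change 0.20, unadjusted p = 0.0159), the glucose transporter *Slc2a1* (-0.23, unadjusted p = 0.0271) and the tropomodulin *Tmod3* (0.19, unadjusted p = 0.0302), each with an adjusted p of 0.781 in edgeR's quasi-likelihood test. All 3 are used by many cell types. The order of the libraries described above held in 9 of the 23 genes, against 9.60% of all genes tested.

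Of 31 other heme and iron genes, 1 was lower in 5C at an unadjusted p under 0.05, the transporter *Flvcr2*, at 9.65, 1.55 and 1.595 CPM in WT, against 1.45, 1.195 and 2.06 CPM in 5C. That difference rested on WT replicate 1, the library with the highest yolk sac endoderm markers. The ferritin heavy chain *Fth1* (log2 fold change 0.19, unadjusted p = 0.0520) and the iron chaperone *Pcbp1* (-0.15, unadjusted p = 0.0621) followed, both with an adjusted p of 0.781 in edgeR's quasi-likelihood test, and the order of the libraries held in 2 of the 31 genes. Of 17 other red cell enzymes and maturation genes, 16 were tested and 1 had an unadjusted p under 0.05: *Bnip3l* (NIX), which removes mitochondria from maturing red cells and acts in other cells too, with 96.4, 102 and 98.9 CPM in WT, against 122, 119 and 115 CPM in 5C. Its log2 fold change was 0.26 (SE 0.06), with an unadjusted p of 0.0024, or 0.781 once adjusted, in edgeR's quasi-likelihood test. The order of the libraries held in 5 of these enzyme and maturation genes.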

How the data were processed

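Polyadenylated RNA of whole embryos was sequenced by the authors, aligned with STAR to GRCm38 and counted per Ensembl gene; the deposited values are raw read counts without normalization. Groups and replicate numbers came from the sample titles, and 0 columns lacked a sample. Symbols, exon lengths and 3′ UTRs (principal protein-coding transcripts) came from GENCODE M21 (GRCm38), with 55141 of 55401 identifiers matched.

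Genes were filtered with filterByExpr, scaled with TMM (trimmed mean of M values) and tested with edgeR 4.0.16 (R 4.3.3; legacy quasi-likelihood F-test, two-sided, Benjamini-Hochberg adjustment over all genes tested). A call needed a change of more than 1.5-fold at an adjusted p under 0.05. Standard errors (SE) are the absolute log2 fold change over the root of F. CPM are counts per TMM-scaled total; 3 counts correspond to 0.157 to 0.479 CPM, which covers counting error only. limma 3.58.1 and DESeq2 1.42.0 served as alternatives. The fits were also run on simulated counts, drawn for each gene separately, so they do not cover genes that move together as the 32 do.

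The 33 genes and the other lists were chosen with earlier results of these data known. Values are given library by library for genes at an unadjusted p under 0.05 and, in each role, for the gene with the largest log2 fold change and the one with the highest level per kilobase; other lists give at most 3 genes with the smallest p. Other genes shown this way were chosen after their values were seen, as were the globin covariate and the count of the library order.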

Additional observations from a re-analysis of the deposited data

How the results depend on the processing

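None of the 32 genes was called under any alternative: relative log expression scaling, library size alone, no count filter, at least 10 counts in every sample, DESeq2, limma-voom, counts without mitochondrial and globin genes, GC-content offsets, the globin covariate, or leaving out a library. Over all genes, 319 of 33139 were called without a count filter, 10 with DESeq2, 1 each without 5C replicate 2 and without 5C replicate 3, and 0 under the others. At an unadjusted p under 0.05 there was 1 gene in edgeR's quasi-likelihood test, 6 of 32 without a count filter, against 6.55% of all genes in that setting, 4 with the globin covariate and 0 with relative log expression scaling, limma-voom, counts without mitochondrial and globin genes, or GC-content offsets. Leaving out each library in turn gave 0 to 8 such genes, against 2.62% to 10.4% of all genes tested. The median log2 fold change of the 32 genes was then -0.13 to 0.23. The genotypes did not overlap for 0 to 8 of the 32 genes, against 16.7% to 28.3% of all genes. Of 352 values of single genes under the other alternatives, 335 kept their direction and 17 crossed 0. With library size alone, log2 fold changes crossed 0 to 0.0015 for *Gata1*, 0.0052 for *Epb41* and 0.018 for *Urod*. With no count filter, log2 fold changes crossed 0 to 0.0018 for *Epb41* and 0.013 for *Urod*. With limma-voom, log2 fold changes crossed 0 to -0.022 for *Hemgn*. With offsets for GC content, log2 fold changes crossed 0 to 0.031 for *Gata1*, -0.022 for *Hemgn* and 0.049 for *Urod*. With the embryonic globin covariate, log2 fold changes crossed 0 to -0.072 for *Epor*, -0.0080 for *Add2*, -0.046 for *Trim10* and -0.067 for *Hemgn*. The cause was not tested. Ordered by CPM alone, 7 of the 10 genes highest per kilobase were again among the highest 10.

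The replicate numbers did not pair the libraries: the deviations of same-numbered libraries correlated at -0.17, 0.20 and -0.20, against a mean of 0.03 for other numbers. With the replicate number as a block, 1 gene had an unadjusted p under 0.05, as without it, and *Hemgn* went to -0.0099. The block with GC-content offsets gave 0 such genes, and *Ank1* went to 0.0041, *Hemgn* went to -0.040 and *Urod* went to 0.038. Neither block changed a call.

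Of 192 values with 1 library left out, 151 kept their direction. Ranges over the 6 omissions that included a change of sign were -0.14 to 0.27 for *Add2*, -0.12 to 0.21 for *Alad*, -0.18 to 0.40 for *Alas2*, -0.37 to 0.12 for *Ank1*, -0.0031 to 0.058 for *Bpgm* and -0.20 to 0.21 for *Cpox*. They were -0.30 to 0.029 for *Dmtn*, -0.028 to 0.011 for *Epb41*, -0.38 to 0.36 for *Epor*, -0.091 to 0.20 for *Fech*, -0.47 to 0.18 for *Gata1* and -0.22 to 0.24 for *Hemgn*. They were -0.20 to 0.41 for *Kel*, -0.17 to 0.22 for *Klf1*, -0.026 to 0.31 for *Nfe2*, -0.14 to 0.20 for *Ppox*, -0.13 to 0.49 for *Rhd* and -0.10 to 0.37 for *Slc25a37*. They were -0.60 to 0.23 for *Slc4a1*, -0.21 to 0.21 for *Sptb*, -0.0056 to 0.35 for *Tal1*, -0.22 to 0.25 for *Trim10* and -0.18 to 0.13 for *Urod*. The depth of 6357343 counts in WT replicate 3 limits the lowest genes most, with 24 counts of *Gfi1b* there.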
